A study of Mus musculus with 18 samples.

Results

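Transcript levels of marker genes for Kupffer cells and other leukocytes were examined in mouse liver. The set was a list of 44 symbols grouped by the cell type each gene is used to mark, and a symbol was measured where the platform annotation gave a probe set that symbol alone. That held for 42 of the 44, out of 17097 genes measured in all, and each gene was read from the probe set with its highest mean. Ly6c2 and Retnlg were not analysed here. The 42 genes comprised 8 resident macrophage, 7 general macrophage, 7 monocyte and recruited macrophage, 3 MHC class II, 4 neutrophil, 3 B cell, 4 T cell and 5 natural killer (NK) and cytotoxic cell genes, and the pan-leukocyte gene Ptprc.

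Kupffer cells are the resident macrophages of the liver. They line the sinusoids, take up particles, microbes, lipoproteins and ageing red cells from portal blood, and recycle iron. When resident cells are lost or the liver is injured, blood monocytes enter and can take their place, at first without some resident markers such as Timd4. The liver also holds NK cells, T cells, B cells, dendritic cells and, in inflammation, neutrophils. In RNA from whole liver, fewer cells of a type and less of a transcript per cell cannot be told apart.

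Each of the 18 arrays held total liver RNA of female mice aged 6 to 8 weeks. One model compared wild type mice (n = 5) with NPC1L1 liver transgenic mice (n = 5), both on the C57BL/6 strain; NPC1L1 is a sterol uptake transporter. The other compared treatment with an antisense oligonucleotide (ASO) directed at ACAT2, an enzyme that esterifies cholesterol (n = 4), with treatment with a control ASO (n = 4), both on C57BL/6N, so all mice of that model carried an oligonucleotide. The sources used here do not give the promoter or species of the transgene or the dose and duration of the ASO, and the labels number the samples without stating that they are separate animals.

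Values are log2 RMA summaries, on which a difference of 1 is a doubling of signal. They are compared only within a model, because the median over an array was 4.61 to 4.65 in the transgenic model and 4.38 to 4.40 in the ASO model. Of the 42 leukocyte genes, 7 had a mean under 4.74, the level below which 40% of genes lay (Itgam, Cx3cr1, S100a8, Cd3g, Gzmb, Nkg7 and Klrb1c), and their changes may be compressed by background. Differences were tested with limma over all genes, and calls needed a Benjamini-Hochberg adjusted p under 0.05.

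No leukocyte gene was called in either model. Between transgenic and wild type liver limma called 0 of the 42, against 0.228% of all genes, and 1 of the 42 had an unadjusted p under 0.05, against 10.9% of all genes. Groups separated without overlap for 0 of the 42, against 2.22% of all genes. The mean was above that of wild type for 23 genes and below it for 19, against 52.6% of all genes above and 47.4% below. The median change of the 42 genes was 0.02 and that of all genes was 0.006 on the log2 scale.

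Between ACAT2 ASO and control ASO liver limma called 0 of the 42, against 0.597% of all genes, and 5 of the 42 had an unadjusted p under 0.05, against 13.3% of all genes. Groups separated without overlap for 2 of the 42, the B cell genes Ms4a1 and Cd79a, against 9.05% of all genes. The mean was above that of the control for 32 genes and below it for 10, against 49.7% of all genes above and 50.3% below. The median change of the 42 genes was 0.16, against -0.001 for all genes. By cell type the median change was 0.40 for resident macrophage, 0.34 for general macrophage and 0.43 for MHC class II genes, and it was at most 0.15 for the monocyte, neutrophil, B cell, T cell and NK lists. The same 3 medians in the transgenic model were -0.03, 0.06 and 0.35. These medians changed with which livers were included: without ACAT2 ASO 1 the medians with the ACAT2 ASO were 0.04, 0.01 and -0.08, and without control ASO 4 they were 0.61, 0.63 and 0.91. Without wild type 2 the medians with the transgene were 0.12, 0.23 and 0.68.

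**Figure D1:**
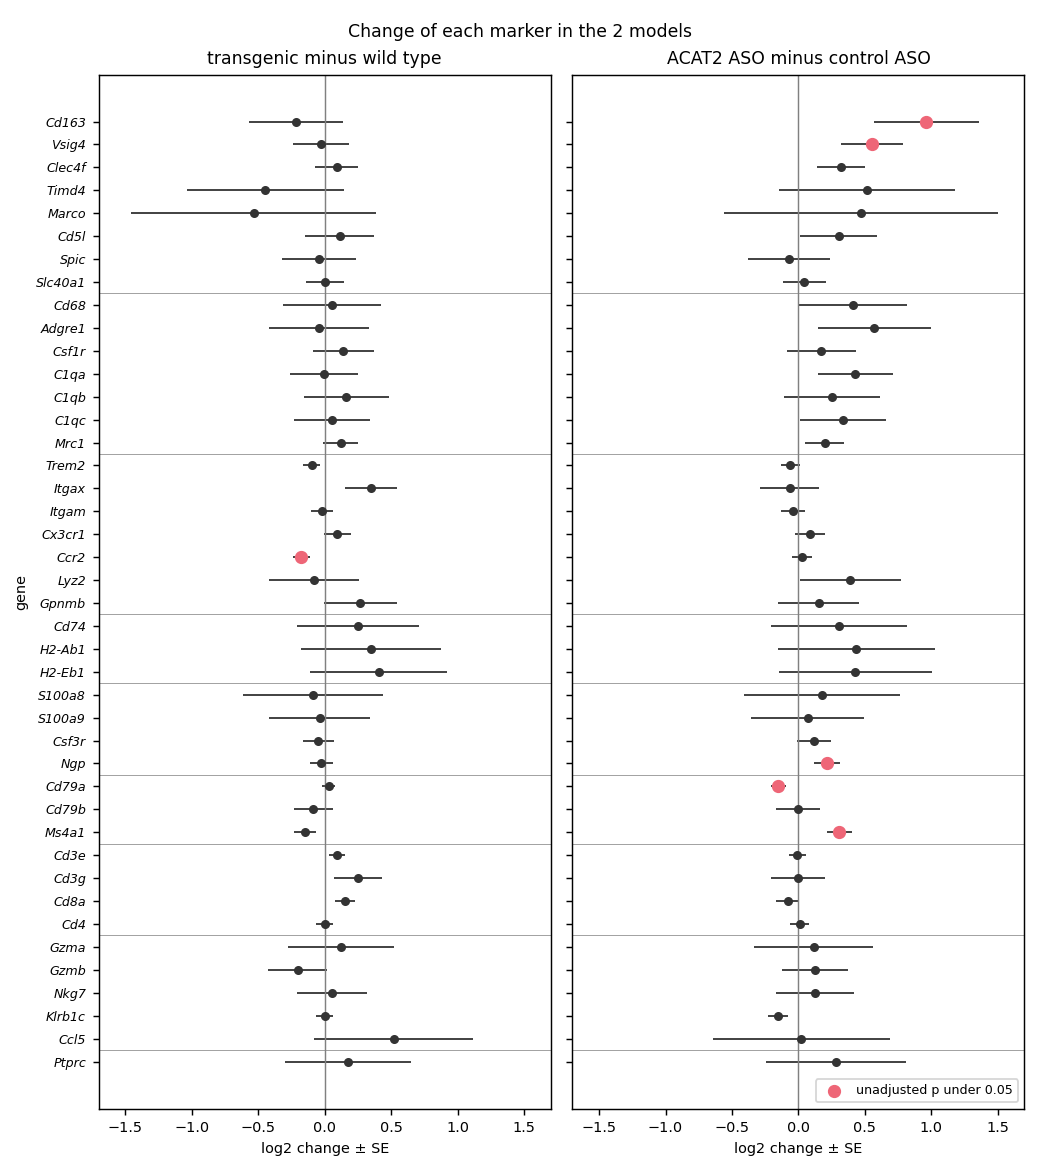
Change of each of the 42 genes on the log2 scale (x axis; point, mean difference; bar, limma's standard error) by gene (y axis, grouped by cell type) for transgenic minus wild type (left, n = 5 and 5) and ACAT2 ASO minus control ASO (right, n = 4 and 4). Genes with an unadjusted p under 0.05 are in red: Ccr2 on the left, and Cd163, Vsig4, Ngp, Cd79a and Ms4a1 on the right.

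The leukocyte genes varied far more between livers of one group than most genes did. The median standard deviation within groups was 0.374 for the 42 genes and 0.114 for all genes in the transgenic model, and 0.420 and 0.098 in the ASO model. In these models 28 and 27 of the 42 genes were among the tenth of all genes that varied most. The spread was widest in both models for Marco (1.37 and 1.88), and it was also wide for Timd4 (1.09 and 0.95), Ccl5 (1.17 and 0.84), S100a8 (0.85 and 1.00), Ptprc (0.69 and 0.97) and the MHC class II genes (0.71 to 0.77, and 0.90 to 1.08). It was narrow for Trem2, Ccr2, Cd79a, Ms4a1, Cd3e, Cd4 and Klrb1c, between 0.04 and 0.14 in both models. Cd79a, Ms4a1 and Trem2 had means of 4.88, 4.89 and 5.18, not far above the 4.74 level, and Klrb1c lay under it. Background may narrow the spread of these genes.

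Many of the genes were high or low together in the same livers. The deviation of an array was taken as its value minus the mean of the other arrays of its group. The median deviation over the 42 genes was 0.76 in wild type 2, 0.68 in ACAT2 ASO 1 and 0.73 in control ASO 4, and each of these arrays held the highest value of its group for 33 of the 42 genes. Over all genes the share at which they were highest was 21.8%, 27.4% and 27.1%, and their median deviation lay between -0.02 and 0. Transgenic 5 was the next, with a median of 0.36 and the highest value of its group for 26 genes. Wild type 1 (-0.51) and ACAT2 ASO 3 (-0.48) were the lowest.

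**Figure D2:**
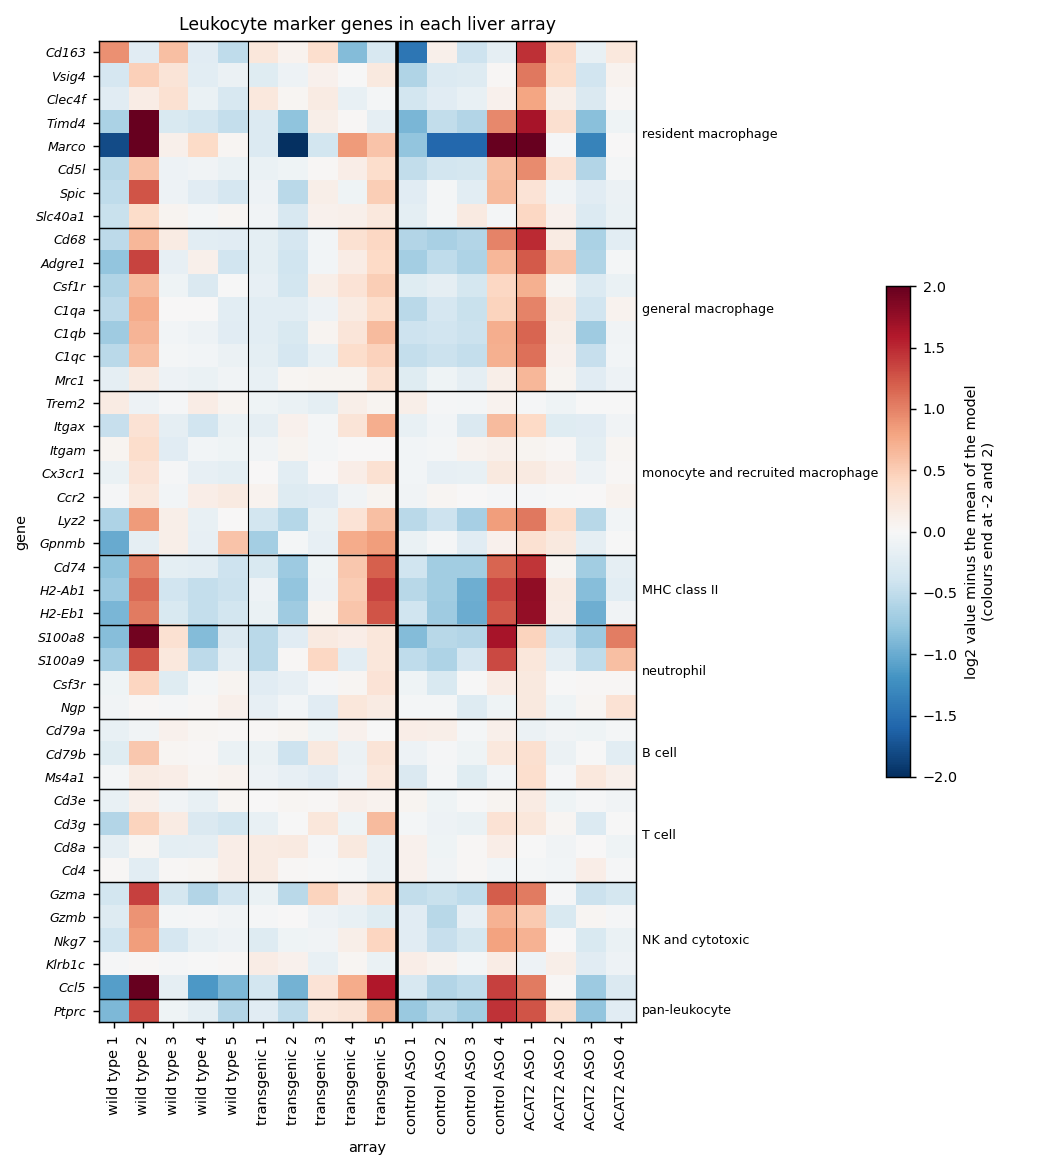
Log2 value of each gene (rows, grouped by cell type) on each array (columns) minus the mean of that gene over the arrays of the same model; red is above and blue below that mean. Wild type 2, control ASO 4 and ACAT2 ASO 1 are red in most rows of the macrophage, MHC class II and NK lists, while rows such as Trem2, Ccr2, Cd79a and Cd4 stay pale.

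The livers that stood high differed in which cell types were high. In wild type 2 the median deviation was 0.68 for resident macrophage, 1.56 for MHC class II, 1.03 for neutrophil and 1.09 for NK and cytotoxic genes. In control ASO 4 it was 0.60, 1.93, 1.05 and 1.15. In ACAT2 ASO 1 the resident macrophage (1.05) and MHC class II genes (2.05) were as high or higher. There the NK and cytotoxic genes deviated by 0.84 and the neutrophil genes by 0.22. S100a8 and S100a9 were highest of that group in ACAT2 ASO 4, which lowers their deviation in ACAT2 ASO 1. The neutrophil values rested mostly on S100a8 and S100a9, which monocytes also express. In wild type 2 and control ASO 4 Csf3r deviated by 0.51 and 0.28, and Ngp by 0.02 and 0.03. In transgenic 5 the MHC class II genes deviated by 1.34 and the resident macrophage genes by 0.27.

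In wild type 2, ACAT2 ASO 1 and control ASO 4 the median deviation of 7 hepatocyte genes was between -0.04 and 0. Some of these, such as Alb, the albumin gene, lie at the top of the scale, and Apob, lower on it, was 9.08 in wild type 2 and 9.28 to 9.73 in the other wild type arrays. In the same order of livers the median deviation of 12 sinusoidal endothelial genes was 0.04, 0.23 and -0.10, and that of 5 erythroid genes was -0.05, 0.12 and 0.13. The endothelial genes include Mrc1, which is also among the 42. A list of 29 other macrophage genes that are not among the 42 deviated by 0.93, 0.98 and 0.95, 19 other lymphocyte and dendritic cell genes by 0.52, 0.31 and 0.30, and 10 other neutrophil genes by 0.06, 0.02 and 0.02. Of these 10, all but Lcn2 lay at 5.95 or lower on every array. Lcn2 was 11.20, 10.91 and 11.75 in the same livers. The other arrays of those groups held 6.61 to 8.56, 8.56 to 10.03 and 7.80 to 8.77. Which cells the Lcn2 signal came from was not measured, so it is not read as a neutrophil signal. The signal at the 3′ end of Actb minus that at its 5′ end, a readout of RNA integrity, was 0.83, 0.92 and 1.04 on the log2 scale in these livers and 0.84 to 1.26 in the other arrays. The part of the endothelial deviation of ACAT2 ASO 1 in its result was not tested.

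**Figure D3:**
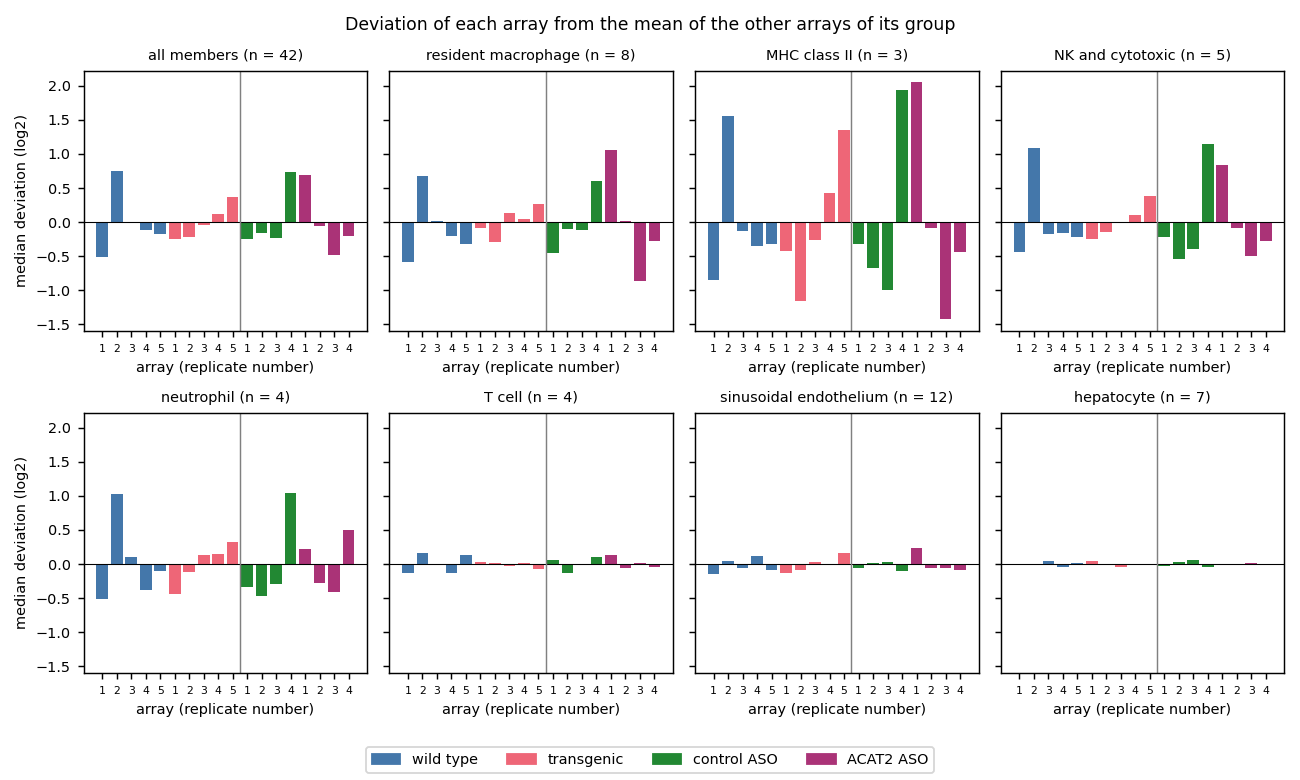
Median deviation of each array from the mean of the other arrays of its group on the log2 scale (y axis) for 8 gene lists, by array (x axis, replicate number, coloured by group; n is the number of genes). For all members the bars reach 0.76 in wild type 2, 0.73 in control ASO 4 and 0.68 in ACAT2 ASO 1, while the hepatocyte bars lie between -0.04 and 0.05.

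Among resident macrophage genes, Clec4f, a C-type lectin receptor found on mouse Kupffer cells and few other cells, varied less than Marco or Timd4. Its values were 8.33, 8.70, 8.86, 8.42 and 8.23 in wild type 1 to 5 and 8.77, 8.59, 8.71, 8.40 and 8.51 in transgenic 1 to 5. They were 9.43, 8.77, 8.36 and 8.66 in ACAT2 ASO 1 to 4 and 8.29, 8.42, 8.50 and 8.74 in control ASO 1 to 4. The groups overlapped in both models, and ACAT2 ASO 1 stood above the other 7 arrays of its model. The change was 0.09 ± 0.16 (SE; limma adjusted p = 0.907) with the transgene and 0.32 ± 0.18 (limma adjusted p = 0.475) with the ACAT2 ASO.

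Vsig4, a complement receptor of the immunoglobulin family by which Kupffer cells capture bacteria from the blood, had a higher mean after the ACAT2 ASO without being called. Its values in ACAT2 ASO 1 to 4 were 10.93, 10.23, 9.49 and 9.93, and in control ASO 1 to 4 they were 9.27, 9.60, 9.61 and 9.90. Of the ACAT2 ASO arrays 1, 2 and 4 lay above every control, and array 3 lay among the controls. The change was 0.55 ± 0.24, or 1.47-fold (limma unadjusted p = 0.032, adjusted p = 0.313). In the transgenic model the values were 9.75, 10.56, 10.35, 9.88 and 9.97 in wild type against 9.85, 9.99, 10.17, 10.09 and 10.28 in transgenic liver. These groups overlapped fully, with a change of -0.03 ± 0.21 (limma adjusted p = 0.983).

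Cd163, the scavenger receptor for haemoglobin bound to haptoglobin, had the largest difference of the 42 genes in the ASO model. Its values were 7.85, 6.80, 6.24 and 6.60 in ACAT2 ASO 1 to 4 and 4.95, 6.49, 5.97 and 6.22 in control ASO 1 to 4. Arrays 1, 2 and 4 of the ACAT2 ASO group lay above every control, array 3 lay between controls 4 and 2, and control 1 was the lowest of the 8. The change was 0.96 ± 0.39, or 1.95-fold (limma unadjusted p = 0.025, adjusted p = 0.292). In the transgenic model the values were 5.88, 4.75, 5.57, 4.74 and 4.46 in wild type against 5.20, 5.04, 5.31, 4.11 and 4.66 in transgenic liver, with a change of -0.22 ± 0.35 (limma adjusted p = 0.894). In the ACAT2 ASO group Cd163 deviated by 1.30, -0.10, -0.84 and -0.37, and the resident list, which includes it, by 1.05, 0.01, -0.86 and -0.27. In the control ASO group Cd163 deviated by -1.28, 0.78, 0.08 and 0.41, and the list by -0.45, -0.10, -0.12 and 0.60. In wild type Cd163 was highest in array 1, where the median of the resident list was 0.59 below the other arrays. Wild type 2 was among the lower ones.

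Marco and Timd4 were singled out after their values were seen, for their excess in single livers. Marco is a scavenger receptor for bacteria and particles, and Timd4 is a receptor for phosphatidylserine on dying cells that marks long-lived resident macrophages. Marco was 7.61-fold above the other arrays of its group in wild type 2, 6.72-fold in ACAT2 ASO 1 and 19.7-fold in control ASO 4. Its values were 5.90, 10.30, 7.79, 8.06 and 7.73 in wild type, 7.41, 5.58, 7.32, 8.53 and 8.26 in transgenic, 8.57, 6.25, 4.94 and 6.29 in ACAT2 ASO and 5.49, 4.70, 4.70 and 9.26 in control ASO liver. In the wild type, ACAT2 ASO and control ASO groups a single array stood far above the rest, and the groups overlapped. Timd4 was 10.1-fold, 3.63-fold and 3.08-fold above the other arrays in the same 3 livers. Its values were 4.02, 7.53, 4.34, 4.28 and 4.16 in wild type, 4.36, 3.84, 4.76, 4.67 and 4.45 in transgenic, 7.16, 5.82, 4.66 and 5.41 in ACAT2 ASO and 4.59, 5.01, 4.93 and 6.47 in control ASO liver. Wild type 2 alone put the wild type mean of Timd4 above the transgenic one. The changes were -0.53 ± 0.92 and 0.47 ± 1.03 for Marco and -0.45 ± 0.59 and 0.52 ± 0.66 for Timd4 (limma adjusted p of 0.813 or more in each).

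The promoter of Marco is shown beside that of C1qc, a chain of the complement starter C1q that macrophages make, because both genes were high in wild type 2, ACAT2 ASO 1 and control ASO 4 and hold the same motif. Of the 42 genes 32 matched RefSeq's promoter table (mouse GRCm38.p6), and short motifs were searched on both strands from 250 bases before to 50 bases after the start. The motif GAGGAAG holds the core bound by PU.1, a factor that macrophages need, and was found in 9 of the 32 (C1qc, Cd5l, Csf3r, Itgam, Klrb1c, Marco, Mrc1, S100a8 and Trem2), against 13.6% of all promoters. Among these 9 were genes that varied widely, such as Marco, and genes that stayed flat on the probe set used, such as Trem2 and Klrb1c. The 250 bases before the start of Marco (chr1:120505025-120505274, minus strand) and of C1qc (chr4:136892915-136893164, minus strand) are printed with the motif in capitals; C1qc holds it on the opposite strand.
Marco: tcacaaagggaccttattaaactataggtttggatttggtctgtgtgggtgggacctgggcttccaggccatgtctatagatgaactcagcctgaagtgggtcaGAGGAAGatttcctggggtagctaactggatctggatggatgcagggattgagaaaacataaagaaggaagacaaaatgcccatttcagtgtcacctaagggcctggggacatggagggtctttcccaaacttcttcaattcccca
C1qc: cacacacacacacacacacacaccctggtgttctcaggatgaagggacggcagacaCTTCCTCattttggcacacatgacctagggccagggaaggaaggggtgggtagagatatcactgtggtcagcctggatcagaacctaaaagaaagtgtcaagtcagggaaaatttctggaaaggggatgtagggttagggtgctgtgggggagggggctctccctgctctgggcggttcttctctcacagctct
A match describes the letters only; binding was not measured.

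The other resident genes were Cd5l, a secreted scavenger-receptor protein, Spic, a transcription factor of red pulp and other iron-recycling macrophages, and Slc40a1, the iron exporter ferroportin. Their changes were 0.11, -0.04 and 0.004 with the transgene and 0.30, -0.07 and 0.04 with the ACAT2 ASO (limma adjusted p of 0.722 or more). Cd5l was 11.25 in control ASO 4 and 10.14 to 10.30 in the other controls. Spic was 6.83 in wild type 2 and 5.07 to 5.48 in the other wild type arrays. A second probe set of Spic had changes of 0.12 and 0.11, opposite in sign to the one used.

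**Figure D4:**
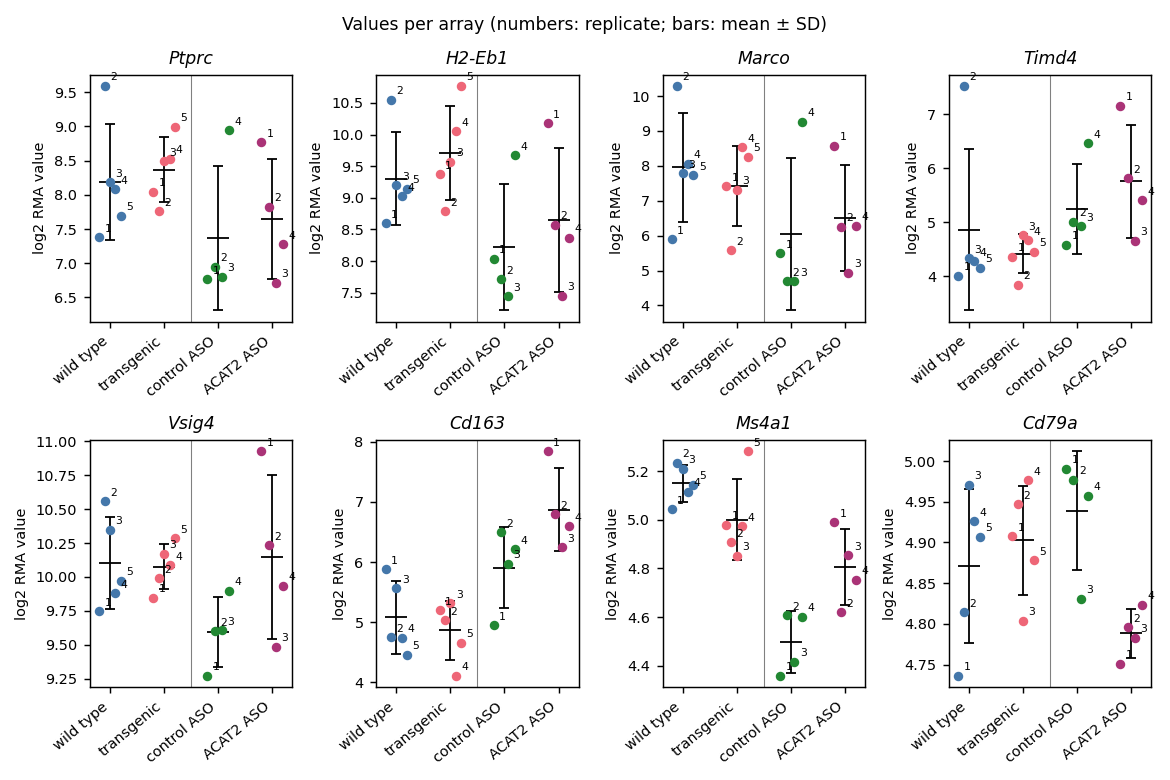
Log2 value (y axis) of 8 genes on each array (points, numbered by replicate) by group (x axis; bar, mean ± SD; n = 5, 5, 4 and 4). Wild type 2, control ASO 4 and ACAT2 ASO 1 are the top points of their groups for Ptprc, H2-Eb1, Marco and Timd4, and the ASO groups do not overlap for Ms4a1 and Cd79a.

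Among general macrophage genes all 7 means were above control after the ACAT2 ASO and none was called. Adgre1 encodes F4/80, the standard surface marker of mouse tissue macrophages. Its values were 8.87, 8.20, 7.04 and 7.61 in ACAT2 ASO 1 to 4 and 6.96, 7.14, 7.02 and 8.31 in control ASO 1 to 4. ACAT2 ASO 3 lay among the low controls and control 4 lay above ACAT2 ASO 2, so the groups overlapped, and the change was 0.57 ± 0.42 (limma adjusted p = 0.623). In the transgenic model its values were 7.41, 9.55, 8.04, 8.31 and 7.83 in wild type against 8.01, 7.80, 8.16, 8.35 and 8.60 in transgenic liver. All transgenic values lay within the wild type range, and the change was -0.04 ± 0.38 (limma adjusted p = 0.983).

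The other 6 genes of this list were highest in the same array of each group as Adgre1. They are Cd68, a lysosomal membrane protein of phagocytes, Csf1r, the receptor of the growth factor that macrophages depend on, C1qa, C1qb and C1qc, the chains of the complement starter C1q, and Mrc1, the mannose receptor, which liver sinusoidal endothelium also expresses. Their changes with the ACAT2 ASO were 0.41, 0.17, 0.43, 0.25, 0.34 and 0.20, with limma adjusted p from 0.562 to 0.848. With the transgene they were 0.05, 0.14, -0.01, 0.16, 0.06 and 0.12, with limma adjusted p from 0.816 to 0.996. In control ASO 4 Cd68 was 7.32 and C1qb 9.56, while the other controls held 5.69 to 5.75 and 8.40 to 8.45. The other 3 control livers were thus close to one another for both genes.

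Of the monocyte and recruited macrophage genes, Ccr2 was the one with an unadjusted p under 0.05 in the transgenic model. Ccr2 is the chemokine receptor by which monocytes leave the marrow and enter inflamed tissue. Its values were 5.31, 5.56, 5.29, 5.47 and 5.51 in wild type against 5.40, 5.09, 5.12, 5.27 and 5.39 in transgenic liver. Transgenic 2, 3 and 4 lay below every wild type array and transgenic 1 and 5 lay among them. The change was -0.17 ± 0.07, or 0.886-fold (limma unadjusted p = 0.018, adjusted p = 0.335). Its 3 other probe sets, all lower, had changes of -0.06, 0.08 and -0.10. In the ASO model Ccr2 was 5.62, 5.64, 5.65 and 5.71 against 5.56, 5.68, 5.64 and 5.62, with a change of 0.03 ± 0.07 (limma adjusted p = 0.918), against 0.35, -0.13 and 0.11 for the other 3 probe sets in the same order.

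Trem2, a lipid-sensing receptor of macrophages that take on lipid, was flat in every group on the probe set used. It was 5.42, 5.17, 5.23, 5.42 and 5.31 in wild type against 5.18, 5.13, 5.07, 5.38 and 5.32 in transgenic liver, and 5.04, 4.98, 5.06 and 5.06 after the ACAT2 ASO against 5.18, 5.05, 5.02 and 5.14 in the control. The groups overlapped, with changes of -0.10 ± 0.06 (limma adjusted p = 0.627) and -0.06 ± 0.07 (limma adjusted p = 0.776). A second probe set of Trem2, of similar signal (mean 5.07, against 5.18 for the one used), differed by 0.32 with the transgene and -0.05 with the ACAT2 ASO. The size and sign of the difference with the transgene thus depend on the probe set.

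The remaining genes of this list are Itgax (CD11c) and Itgam (CD11b), integrin chains of myeloid cells, Cx3cr1, the fractalkine receptor, Lyz2, lysozyme of phagocytes, and Gpnmb, a glycoprotein of lipid-loaded macrophages. Their changes were 0.35, -0.02, 0.09, -0.08 and 0.27 with the transgene and -0.07, -0.04, 0.09, 0.39 and 0.15 with the ACAT2 ASO, with limma adjusted p of 0.556 or more. Itgax was highest in transgenic 5 (7.02), and the other transgenic arrays held 6.12 to 6.56 against 5.84 to 6.58 in wild type. Lyz2 was 10.63 in control ASO 4 and 9.14 to 9.39 in the other controls.

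The MHC class II genes had means above their controls in both models, by 0.25 to 0.41 with the transgene and 0.31 to 0.44 with the ACAT2 ASO, and none was called (limma adjusted p from 0.825 to 0.907). Cd74 is the invariant chain that escorts class II molecules, and H2-Ab1 and H2-Eb1 are their beta chains, all expressed by macrophages, dendritic cells and B cells. Cd74 was 8.55, 10.34, 9.16, 9.14 and 8.94 in wild type against 9.04, 8.62, 9.27, 9.89 and 10.55 in transgenic liver. It was 9.17, 7.80, 7.05 and 7.56 after the ACAT2 ASO and 7.35, 7.04, 7.05 and 8.91 in the control. In each group 1 array stood 1.34 to 1.76 above the mean of the others: wild type 2, transgenic 5, ACAT2 ASO 1 and control ASO 4. The groups overlapped, with changes of 0.25 ± 0.46 and 0.31 ± 0.51 (limma adjusted p = 0.907 and 0.867).

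H2-Ab1 and H2-Eb1 were highest in the same array of each group as Cd74. H2-Eb1 was 8.60, 10.55, 9.20, 9.02 and 9.15 in wild type, 9.37, 8.79, 9.57, 10.06 and 10.77 in transgenic, 10.18, 8.58, 7.46 and 8.37 in ACAT2 ASO and 8.04, 7.72, 7.45 and 9.67 in control ASO liver. It was 2.95-fold, 2.50-fold, 4.14-fold and 3.82-fold above the other arrays of its group in wild type 2, transgenic 5, ACAT2 ASO 1 and control ASO 4. Without transgenic 5 the median change of the 3 genes fell to 0.06, and without wild type 2 it was 0.68. Both other probe sets of H2-Ab1 had changes of the same sign, 0.46 and 0.27 with the transgene.

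The promoter of H2-Eb1 is shown because class II genes share a known control module, the X box and CCAAT-type Y box on which the activator CIITA is assembled. The X box was searched by its core TAGCAAC, which 3.66% of all promoters and 3 of the 32 held (H2-Eb1, Cd68 and Csf3r), and the Y box as CCAAT, which 37.4% of all promoters and 12 of the 32 held. The letters of the 2 motifs do not overlap in H2-Eb1. The 250 bases before its start (chr17:34305617-34305866, plus strand) are printed with both in capitals.
H2-Eb1: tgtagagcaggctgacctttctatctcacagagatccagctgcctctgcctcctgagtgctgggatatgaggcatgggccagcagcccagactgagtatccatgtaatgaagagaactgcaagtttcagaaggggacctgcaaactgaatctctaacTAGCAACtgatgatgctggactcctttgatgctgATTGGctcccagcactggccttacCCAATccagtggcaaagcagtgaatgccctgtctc
The X box core begins 93 bases before the start, and a CCAAT on the opposite strand begins 59 bases before it.

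Neutrophil genes split into a pair that varied widely and a pair that varied less. S100a8 and S100a9 encode the subunits of calprotectin, abundant in neutrophils and monocytes. S100a8 was 3.90, 6.69, 5.05, 3.89 and 4.46 in wild type against 4.22, 4.53, 4.94, 4.89 and 4.98 in transgenic liver, and 4.75, 3.92, 3.57 and 5.32 after the ACAT2 ASO against 3.44, 3.75, 3.72 and 5.95 in the control. Wild type 2 and control ASO 4 were the highest of their groups, and in the ACAT2 ASO group array 4, not array 1, was highest. The changes were -0.08 ± 0.53 (limma adjusted p = 0.980) and 0.18 ± 0.59 (limma adjusted p = 0.937). S100a9 had the same order at the top, with changes of -0.04 and 0.07.

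Csf3r, the receptor of the neutrophil growth factor G-CSF, and Ngp, a neutrophil granule protein, stayed within narrower ranges. Ngp was 5.32, 5.04, 5.18 and 5.42 after the ACAT2 ASO and 5.10, 5.09, 4.88 and 5.05 in the control. Of the ACAT2 ASO arrays 1, 3 and 4 lay above every control and array 2 lay above control 3 alone. The change was 0.21 ± 0.10 (limma unadjusted p = 0.044, adjusted p = 0.356). In the transgenic model Ngp was 5.17, 5.26, 5.21, 5.25 and 5.34 in wild type against 5.06, 5.19, 5.00, 5.46 and 5.39 in transgenic liver, with a change of -0.03 ± 0.09 (limma adjusted p = 0.956). Csf3r differed by -0.05 and 0.12 (limma adjusted p = 0.933 and 0.767). It was highest of its group in wild type 2 (6.19) and control ASO 4 (6.45).

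The B cell genes held the smallest p of the 42 genes and shared no direction. Ms4a1 encodes CD20, a surface protein of mature B cells. It was 4.99, 4.62, 4.85 and 4.75 in ACAT2 ASO 1 to 4 and 4.36, 4.61, 4.42 and 4.60 in control ASO 1 to 4, so that every ACAT2 ASO array was above every control, by 0.01 at the nearest. The change was 0.31 ± 0.09, or 1.24-fold (limma unadjusted p = 0.0038, adjusted p = 0.134). A second probe set of Ms4a1, of lower signal, had a change of 0.07, and with the mean of both the change was 0.19. In the transgenic model it was 5.04, 5.24, 5.21, 5.12 and 5.15 in wild type against 4.98, 4.91, 4.85, 4.97 and 5.28 in transgenic liver. Transgenic 1 to 4 lay below every wild type array and transgenic 5 above all, with a change of -0.15 ± 0.08 (limma adjusted p = 0.542).

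Cd79a and Cd79b are the signalling chains of the B cell receptor and did not follow Ms4a1. Cd79a was 4.75, 4.80, 4.78 and 4.82 after the ACAT2 ASO and 4.99, 4.98, 4.83 and 4.96 in the control, with every ACAT2 ASO array below every control. The change was -0.15 ± 0.06, or 0.901-fold, the opposite sign to Ms4a1 (limma unadjusted p = 0.014, adjusted p = 0.233). It was 4.74, 4.81, 4.97, 4.93 and 4.91 in wild type against 4.91, 4.95, 4.80, 4.98 and 4.88 in transgenic liver, which overlapped, with a change of 0.03 ± 0.05 (limma adjusted p = 0.888). Cd79b differed by -0.08 with the transgene (limma adjusted p = 0.903) and by -0.002 with the ACAT2 ASO (limma adjusted p = 0.999). Among B cell genes outside the set, Cd22, Ighm and Pax5 differed by 0.17, 0.14 and -0.11 with the ACAT2 ASO (limma adjusted p = 0.461, 0.452 and 0.671). Every ACAT2 ASO array was above every control for Cd22, where 9.05% of all genes did not overlap. Ighm and Pax5 lay under 4.74 on every array.

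The T cell genes of the set were close to flat across livers, apart from Cd3g. Cd3d, read among the other lymphocyte genes, was not flat. It was 6.13 in wild type 2, 6.23 in transgenic 5 and 5.69 in control ASO 4. The other arrays of those groups held 5.36 to 5.51, 5.40 to 5.79 and 4.95 to 5.08. Thy1, from the same list, was also highest of its group in these arrays. Cd3e, a chain of the T cell receptor complex, was 6.20, 6.45, 6.29, 6.20 and 6.39 in wild type against 6.36, 6.40, 6.37, 6.45 and 6.42 in transgenic liver. The transgenic arrays lay close together, at or above 6.36, where 2 of the 5 wild type arrays also lay. The change was 0.09 ± 0.06 (limma adjusted p = 0.596). It was 6.18, 5.93, 5.99 and 5.95 after the ACAT2 ASO and 6.07, 5.93, 6.02 and 6.07 in the control, with a change of -0.01 ± 0.06 (limma adjusted p = 0.979). Cd3g, another chain of the complex, Cd8a, the coreceptor of cytotoxic T cells, and Cd4, that of helper T cells, had changes of 0.25, 0.15 and under 0.01 with the transgene and -0.005, -0.08 and 0.01 with the ACAT2 ASO (limma adjusted p of 0.499 or more). One of the other 2 probe sets of Cd8a had the opposite sign with the transgene (-0.09).

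Of the 5 NK and cytotoxic cell genes, Gzma, Gzmb, Nkg7 and Ccl5 were high in wild type 2, ACAT2 ASO 1 and control ASO 4, and Klrb1c was not. Nkg7, a protein of cytotoxic granules, was 4.49, 5.73, 4.56, 4.75 and 4.79 in wild type against 4.63, 4.81, 4.82, 5.01 and 5.32 in transgenic liver, and 5.13, 4.44, 4.13 and 4.30 after the ACAT2 ASO against 4.21, 3.97, 4.08 and 5.24 in the control. Wild type 2, transgenic 5, ACAT2 ASO 1 and control ASO 4 were again the highest, and the groups overlapped. The changes were 0.06 ± 0.26 (limma adjusted p = 0.969) and 0.13 ± 0.29 (limma adjusted p = 0.907). Ccl5, a chemokine of NK and T cells, was 7.20-fold above the other wild type arrays in wild type 2 and 3.18-fold above the other transgenic arrays in transgenic 5. Its changes were 0.52 ± 0.60 (limma adjusted p = 0.823) and 0.02 ± 0.67 (limma adjusted p = 0.996).

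The granule proteases Gzma and Gzmb differed by 0.12 and -0.20 with the transgene and by 0.12 in each case with the ACAT2 ASO (limma adjusted p of 0.814 or more). Klrb1c, the NK1.1 antigen of C57BL/6 NK cells, deviated by 0.03, -0.03 and 0.09 in wild type 2, ACAT2 ASO 1 and control ASO 4, and had changes of -0.001 and -0.16 (limma adjusted p = 0.999 and 0.387). Of the other NK genes read, Ncr1, an activating receptor, was 3.81 in wild type 2, within 3.81 to 3.92 in that group. In control ASO 4 it was 3.98, against 3.70 to 3.77 in the other controls. Prf1, perforin, was lowest of its group in wild type 2 (4.35) and control ASO 4 (4.18). Both genes were under 4.74 on every array. Klrd1, Klrk1 and Xcl1 were highest of their groups in both livers. They were 5.13, 6.31 and 4.80 in wild type 2, and 4.20, 5.02 and 4.67 in control ASO 4. Gzma was 6.99 in wild type 2 and 5.85 in control ASO 4, against 5.04 to 5.28 and 4.13 to 4.19 in the other arrays of those groups.

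Ptprc encodes CD45, carried by all leukocytes. It was 7.38, 9.59, 8.19, 8.08 and 7.70 in wild type against 8.04, 7.76, 8.49, 8.53 and 8.99 in transgenic liver. It was 8.77, 7.83, 6.72 and 7.27 after the ACAT2 ASO and 6.77, 6.95, 6.80 and 8.95 in the control. The array with the highest value in each model was a control, wild type 2 or control ASO 4, and the groups overlapped. Ptprc was 3.38-fold above the other arrays of its group in wild type 2, 2.82-fold in ACAT2 ASO 1 and 4.31-fold in control ASO 4. The changes were 0.18 ± 0.47 (limma adjusted p = 0.941) and 0.28 ± 0.53 (limma adjusted p = 0.881).

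The effects of the 2 treatments were set against each other in the same fit. Limma called 0 of the 42 for the difference of the effects, against 1.07% of all genes, and 3 had an unadjusted p under 0.05, against 15.4% of all genes. They were Ms4a1 (-0.46 ± 0.12, adjusted p = 0.083), Cd79a (0.18 ± 0.07, adjusted p = 0.241) and Cd163 (-1.18 ± 0.53, adjusted p = 0.290), where a negative value means a lower change with the transgene than with the ACAT2 ASO. With the mean of both probe sets the difference for Ms4a1 was -0.27. Ms4a1 alone was called when a single array was left out, without transgenic 5 (-0.53, limma adjusted p = 0.028) or without ACAT2 ASO 2 (-0.52, limma adjusted p = 0.045). Strain, oligonucleotide and possibly normalization differ between the models and cannot be told apart from this difference.

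Because wild type 2, ACAT2 ASO 1 and control ASO 4 stood apart on these very genes, the comparisons were repeated without them, a choice made after seeing the data. Taking the highest array out of one group moves the difference by construction. Removing arrays picked for high values of these genes also narrows their spread, which lowers unadjusted p in both models. The unadjusted counts without these arrays are therefore not a test of the genes. In the transgenic model limma again called 0 of the 42, against 0.287% of all genes, but 35 means were above wild type and 7 below (51.6% and 48.4% of all genes) and 11 genes had an unadjusted p under 0.05, against 12.6% of all genes. The 11 were Ptprc (0.53), Ccl5 (1.09), Gzma (0.48), Nkg7 (0.27), Itgax (0.46), Mrc1 (0.18), H2-Ab1 (0.68), H2-Eb1 (0.72), Cd3e (0.13), Cd3g (0.40) and Cd8a (0.18), with limma adjusted p from 0.199 to 0.394. Without wild type 2 alone the number was 5, against 11.3% of all genes.

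In the ASO model limma called 0 of the 42 without these arrays, against 0.269% of all genes, and 4 genes had an unadjusted p under 0.05, against 10.9% of all genes. They were Vsig4 (0.39), Adgre1 (0.57), C1qa (0.39) and Ms4a1 (0.28), with limma adjusted p from 0.310 to 0.445, and 33 means were above control and 9 below (49.5% and 50.5% of all genes). Here the removed arrays lay in opposite groups, and the median change of the 42 genes was 0.19, close to the 0.16 with all arrays. Leaving out one of them at a time moved it to -0.03 without ACAT2 ASO 1 and 0.39 without control ASO 4. For resident macrophage genes the median went from 0.40 to 0.04 without ACAT2 ASO 1. The change of Cd163 was 0.64 and that of Vsig4 0.29 without ACAT2 ASO 1. For the difference of the effects limma called 0 of the 42 without these 3 arrays, against 0.339% of all genes, and 2 (Ms4a1 and Cd3e) had an unadjusted p under 0.05, against 13.6%.

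**Figure D5:**
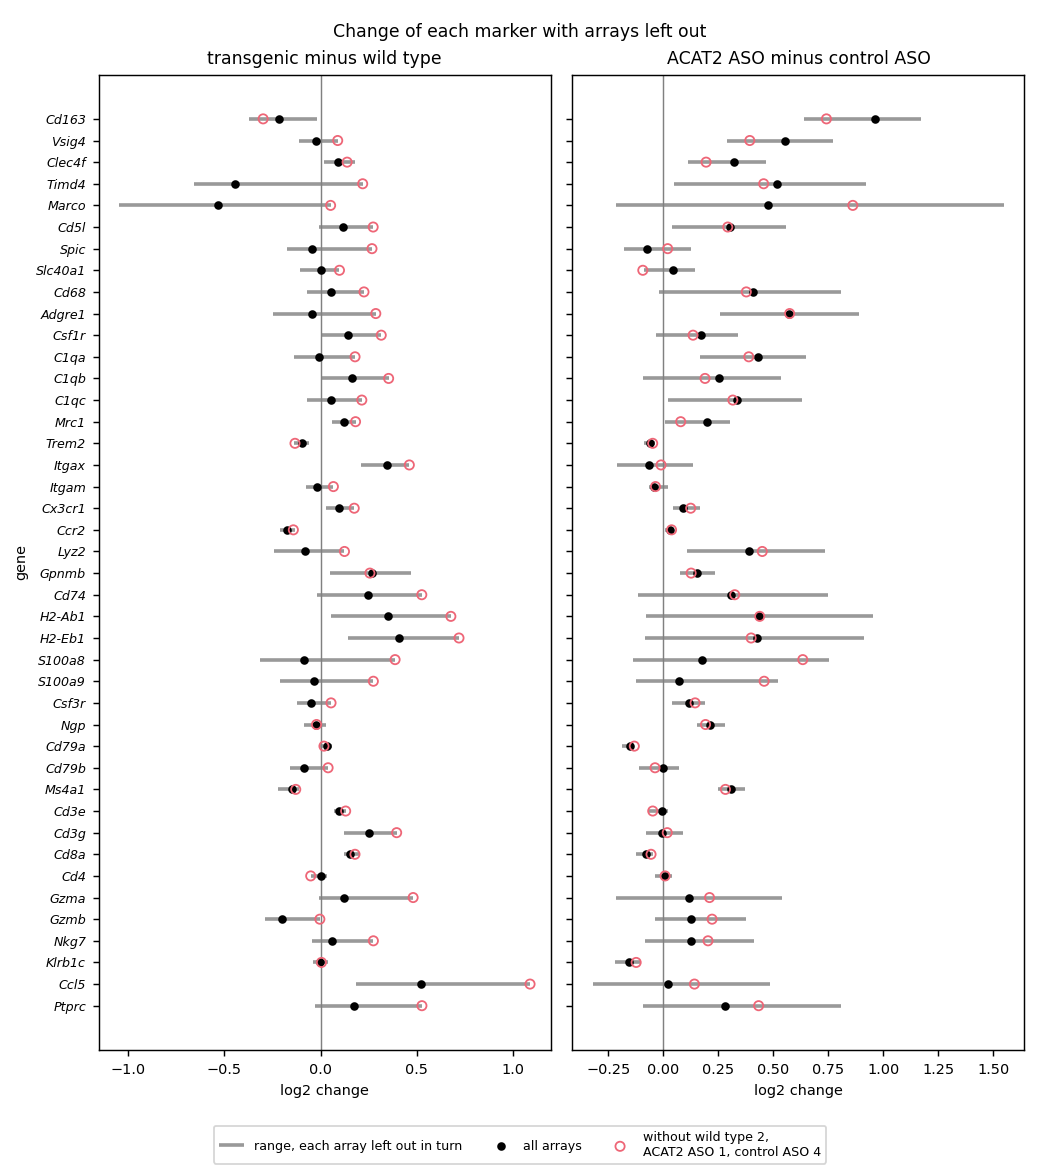
Change of each gene on the log2 scale (x axis) by gene (y axis) with all arrays (black points), over fits that leave out each array in turn (grey bars, lowest to highest) and without wild type 2, ACAT2 ASO 1 and control ASO 4 (open red circles), for transgenic minus wild type (left) and ACAT2 ASO minus control ASO (right). On the right the grey bar of Marco runs from -0.21 to 1.55 and that of H2-Eb1 from -0.08 to 0.91, while those of Cd163 (0.64 to 1.17), Vsig4 (0.29 to 0.77) and Ms4a1 (0.25 to 0.37) lie above 0.

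Further genes of the same cells and of the signals that reach them were read from the same fit, 109 of 119 listed. Limma called 0 of them in either model, against 0.228% and 0.597% of all genes. Of the 109, 5 had an unadjusted p under 0.05 with the transgene and 3 with the ACAT2 ASO, against 10.9% and 13.3% of all genes. The 5 were Lrat of the stellate list, Pecam1 of the endothelial list, Cps1 of the hepatocyte list, Jchain and Csf1. Csf1, the growth factor bound by Csf1r, was the one gene among both. With the ACAT2 ASO it was 6.13, 6.11, 6.09 and 6.20 against 6.41, 6.31, 6.26 and 6.29 in the control, every array below every control (9.05% of all genes did not overlap), with a change of -0.19 ± 0.07 (limma adjusted p = 0.265). With the transgene it differed by 0.14 ± 0.06 (limma adjusted p = 0.442). Of 29 other macrophage genes 21 and 22 had means above their controls, with medians of 0.09 and 0.16. Of 19 macrophage ligands and chemokines 10 and 4 did, with medians of 0.01 and -0.07. The 3 genes with the ACAT2 ASO were Csf1, Ccl9 and Ltf. Ccl9, of the ligand and chemokine list, differed by -0.48 ± 0.22 (limma unadjusted p = 0.043, adjusted p = 0.351). Ltf, lactoferrin of neutrophil granules, differed by 0.20 ± 0.07 with the ACAT2 ASO (limma adjusted p = 0.241). The 10 other neutrophil genes, Ltf among them, had a median change of 0.02 there and ranged from -0.06 to 0.54, the 0.54 being Lcn2. Jchain, the joining chain that plasma cells make, differed by 0.78 ± 0.35 with the transgene (limma adjusted p = 0.427).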

How the data were processed

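Liver RNA of 18 mouse samples was hybridised to Affymetrix MG-430 PM arrays after 3′-IVT labelling, per the labels' protocols. The deposited log2 values are RMA summaries made by the authors, per the submitters' processing notes; that they are log2 was taken from their range, 2.61 to 13.61. Whether RMA was run on each model separately is not given in the sources used here. Of 45141 probe sets, 104 controls were left out, 28898 carried 1 symbol, 551 several and 15588 none; the highest-mean probe set per symbol gave 17097 genes. No 2 arrays held identical values. Their number limits the precision, and p-values measure the spread between samples, which may be partly technical.

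limma 3.58.1 (R 4.3.3) fitted 1 mean per group over all 18 arrays with lmFit and eBayes, two-sided, with Benjamini-Hochberg adjustment over all genes. Errors of changes are limma's moderated standard errors. The fit was tested on simulated data. The members, lists and tests were chosen with earlier results of these data known. Every measured gene of the set is named; values of every array are given for 1 or 2 defining genes per list and for genes with an unadjusted p under 0.05 or groups that do not overlap. Alternatives covered filtering, centring, normalization, probe set choice, variance model, array weights, a replicate block and each array left out.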

Additional observations from a re-analysis of the deposited data

Results flagged for a closer look

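A sample was noted where its gap to the nearest other sample of its group was large for the group's range (Dixon's criterion), which chance gives for about 1 in 20 groups. Over all genes it was met for 6.45%, 5.36%, 5.64% and 6.92% of genes in wild type, transgenic, ACAT2 ASO and control ASO liver, and among the 42 leukocyte genes for 6, 0, 2 and 12 genes. The genes vary together across livers, so these are not independent events.

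Wild type 2 was far above the other wild type livers for Timd4 (7.53, others up to 4.34), Spic (6.83, up to 5.48), H2-Ab1 (9.84, up to 8.32), Gzma (6.99, up to 5.28), Gzmb (5.74, up to 4.82) and Nkg7 (5.73, up to 4.79). These are 2 resident macrophage genes, 1 MHC class II gene and 3 cytotoxic cell genes.

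Control ASO 4 was far above the other controls for 12 genes. The macrophage genes were Cd5l (11.25, others up to 10.30), Cd68 (7.32, up to 5.75), Adgre1 (8.31, up to 7.14), C1qb (9.56, up to 8.45), C1qc (9.09, up to 7.95) and Lyz2 (10.63, up to 9.39). The others were Cd74 (8.91, up to 7.35), S100a8 (5.95, up to 3.75), S100a9 (7.34, up to 5.69), Gzma (5.85, up to 4.19), Ccl5 (7.91, up to 6.22) and Ptprc (8.95, up to 6.95).

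ACAT2 ASO 3 stood apart for 2 genes of narrow range, low for Itgam (3.37, others 3.59 to 3.62) and high for Cd4 (5.57, others 5.38 to 5.40). Itgam lies among the 40% of genes with the lowest mean.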

How the results depend on the processing

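The number of the 42 genes called was 0 in each model under all alternatives, with the threshold at 0.01, and without wild type 2, ACAT2 ASO 1 and control ASO 4, while limma's unadjusted count ran from 0 to 11 with the transgene and from 2 to 7 with the ACAT2 ASO. For the difference of the effects the count ran from 0 to 1 when each array was left out in turn, the 1 being Ms4a1. With the replicate number as a block 0 genes were called in each comparison. Correlations of the deviations of same-numbered samples ran from -0.48 to 0.47, and 1 of 9 pairs correlated best with its own number. They showed no clear pairing by number and, with few arrays per group, could not exclude one. Some medians near 0 changed sign, such as with array weights (resident macrophage genes with the transgene, 0.01) or with the mean of all probe sets of a gene (monocyte genes with the transgene, 0.11). The direction of many single genes, none of them called, depended on which livers were included. Leaving out each array in turn turned the sign of 24 of the 42 changes with the transgene, 14 of them without wild type 2, and of 22 with the ACAT2 ASO, 13 of them without ACAT2 ASO 1 and 6 without control ASO 4.

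With the transgene the ranges over these fits were Vsig4 (-0.11 to 0.089), Timd4 (-0.66 to 0.22), Marco (-1.05 to 0.052), Cd5l (-0.0096 to 0.27), Spic (-0.17 to 0.27), Slc40a1 (-0.11 to 0.098), Cd68 (-0.068 to 0.23), Adgre1 (-0.25 to 0.29), C1qa (-0.14 to 0.18), C1qc (-0.071 to 0.21), Itgam (-0.075 to 0.067), Lyz2 (-0.24 to 0.12), Cd74 (-0.021 to 0.53), S100a8 (-0.31 to 0.39), S100a9 (-0.21 to 0.27), Csf3r (-0.12 to 0.054), Ngp (-0.085 to 0.030), Cd79a (-0.0018 to 0.057), Cd79b (-0.16 to 0.039), Cd4 (-0.051 to 0.036), Gzma (-0.0065 to 0.48), Nkg7 (-0.044 to 0.27), Klrb1c (-0.039 to 0.037) and Ptprc (-0.027 to 0.53). With the ACAT2 ASO they were Marco (-0.21 to 1.55), Spic (-0.18 to 0.12), Slc40a1 (-0.089 to 0.14), Cd68 (-0.022 to 0.81), Csf1r (-0.034 to 0.34), C1qb (-0.095 to 0.54), Itgax (-0.21 to 0.14), Itgam (-0.066 to 0.019), Cd74 (-0.12 to 0.75), H2-Ab1 (-0.081 to 0.95), H2-Eb1 (-0.084 to 0.91), S100a8 (-0.14 to 0.75), S100a9 (-0.12 to 0.52), Cd79b (-0.11 to 0.070), Cd3e (-0.065 to 0.020), Cd3g (-0.079 to 0.091), Cd4 (-0.037 to 0.037), Gzma (-0.21 to 0.54), Gzmb (-0.039 to 0.38), Nkg7 (-0.085 to 0.41), Ccl5 (-0.32 to 0.48) and Ptprc (-0.093 to 0.81). Without the 3 arrays together the values of turned sign were Vsig4 (0.089), Timd4 (0.22), Marco (0.052), Spic (0.27), Adgre1 (0.29), C1qa (0.18), Itgam (0.067), Lyz2 (0.12), S100a8 (0.39), S100a9 (0.27), Csf3r (0.054), Cd79b (0.039), Cd4 (-0.051) and Klrb1c (0.0046) with the transgene and Spic (0.020), Slc40a1 (-0.093) and Cd3g (0.018) with the ACAT2 ASO.

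Array weights turned Spic (0.054), Adgre1 (0.068), C1qa (0.051), Itgam (0.015), S100a8 (0.040), S100a9 (0.014) and Klrb1c (0.027) with the transgene and Slc40a1 (-0.048) and Cd3g (0.021) with the ACAT2 ASO. The mean of the probe sets turned Spic (0.037), Trem2 (0.11) and Cd4 (-0.016) with the transgene and Spic (0.018) and Cd8a (0.021) with the ACAT2 ASO. Quantile normalization turned Slc40a1 (-0.0065) and Cd4 (-0.0024) with the transgene, and median centring turned Klrb1c (0.0012) with the transgene and Cd79b (0.00016) with the ACAT2 ASO. Itgam, Cx3cr1, S100a8, Cd3g, Gzmb, Nkg7 and Klrb1c are limited by low signal.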
